A study of Homo sapiens with 27 samples.

Results

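Ion channel genes were followed through the cardiac differentiation of human embryonic stem cells, with and without an inhibitor of WNT signalling. They were picked by gene symbol, but this set was chosen with earlier results of these data known. The symbols covered sodium channel pore and beta subunits (SCN) and voltage-gated calcium channel pore and auxiliary subunits (CACN). HCN channels and potassium channel pore and auxiliary subunits (KCN) were covered too. Probes on the array named 128 such genes. A gene was kept where its probe, the brightest one where there were several, had a detection p-value under 0.01 on at least 2 arrays. This left 79 channel genes among the 13572 genes that passed the same filter. Of the other 49, 43 were detected on no array. On exactly 2 arrays were CACNA2D3, CACNA2D4, CACNG3, CACNG4, KCNA6, KCNE1, SCN4A and SCN9A, 8 genes just inside the limit, and 6 on a single array lay just outside it: CACNA1E, CACNG2, KCNE2, KCNG4, KCNH4 and KCNJ6.

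The cells were HuES6, 1 established embryonic stem cell line, grown on Matrigel in medium free of serum and albumin. Every differentiating culture received FGF2 (10 ng/ml), BMP4 (1 ng/ml) and the WNT activator CHIR00921 (1 µM) for the first 24 hours, with insulin on day 0 only. In the inhibitor arm IWP-2, which blocks the secretion of WNT proteins, was given on 2 successive days. The additions fell on days 2 and 3 for time course 1 but already on days 1 and 2 for time course 2. RNA of this arm was taken on days 3, 4, 5, 6 and 8, with a further day 2 array for time course 2. In the arm without inhibitor RNA was taken on days 1, 2, 3, 4, 5, 6 and 8 in both time courses, and day 0 was the undifferentiated line. This made 11 arrays with IWP-2 and 16 without, 13 in time course 1 and 14 in time course 2. The time courses differ both in the inhibitor window and in the run, which cannot be told apart. Whether different days of 1 time course came from separate cultures is not in the labels, and the p-values therefore cover the spread among the arrays, which may be technical.

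Voltage-gated sodium and calcium channels open when a membrane is depolarised and carry the upstroke and plateau of the cardiac action potential, and potassium channels bring the membrane back to rest. In the embryonic heart calcium currents come early and drive the first contractions, HCN channels help to set the rate, and inward rectifiers stabilise the resting potential. Auxiliary subunits do not form a pore but change how many pore subunits reach the surface and how they open.

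Values are log2 levels after background correction and quantile normalization, so that a difference of 1 is a 2-fold difference. They are set side by side between arrays for 1 probe, never between probes. The weakest signal still called detected stood between 4.72 and 5.13 on the 27 arrays, and the highest normalized level of any probe was 14.17. Between 16424 and 19784 probes were detected per array. The mean scanner signal was 293.1 to 349.5 on 26 arrays and 225.2 on the IWP-2 array of day 8 in time course 2. Differences carry the standard error of a fit to all arrays (limma), and a gene is called where its Benjamini-Hochberg adjusted p over all 13572 genes was under 0.05.

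The cell type markers differed sharply between the arms. On days 6 and 8 all 7 cardiomyocyte markers measured (such as MYH6, TNNI3 and NKX2-5) were higher with IWP-2, with summed levels of 27656 to 40127 on the linear scale with IWP-2 and 411 to 1942 without it, where MYH7, ACTN2, TNNI3, TTN and NKX2-5 were undetected on all 4 arrays. Of 8 smooth muscle and fibroblast markers 4 were higher and 4 lower, and their sum was 15589 to 20515 with IWP-2 against 35006 to 54477 without, with POSTN undetected with IWP-2 and MYH11 undetected without. Endothelial markers summed to 353 to 1040 against 1233 to 1825 (0 of 5 higher, 1 lower), and neuronal markers to 594 to 729 against 398 to 2731 (3 of 9 higher, 1 lower), with ELAVL3 undetected in the first group and NEFM in the second. Undifferentiated-cell markers summed to 607 to 3842 with IWP-2 and 1365 to 3789 without (0 of 6 higher, 3 lower), with NANOG and SOX2 undetected on all 8 arrays, and RNA quality and stress genes to 2852 to 3692 and 2331 to 3161 (2 of 8 higher, 1 lower). In such bulk samples more cells of a type and more RNA per cell cannot be told apart, and the part of these cell types in the channel differences below was not tested.

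For the 79 genes, the stage of the highest mean level was read off where the means ranged widely enough. Group means were taken over the 13 day and arm groups with 2 arrays, which leaves out the single day 2 array with IWP-2. Over these means, 49 of the genes ranged by at least 1 on the log2 scale. The highest group of 17 lay in the IWP-2 arm on days 5 to 8, and that of 9 in the arm without inhibitor on the same days. The highest group lay on days 2 to 4 for 7 genes with IWP-2 and 9 without, and on days 0 and 1 for 7. In 35 of the 49 the 2 time courses gave the same stage. Of the 17 genes highest late with IWP-2, 14 did so in both: CACNA1C, CACNA1G, CACNB2, CACNG6, KCNA7, KCNH2, KCNH7, KCNIP2, KCNJ8, KCNK3, KCNMB1, KCNMB2, KCNMB4 and KCNQ5. Of the 9 highest late without inhibitor, 7 did so in both: CACNA1H, CACNB3, KCNIP1, KCNIP4, KCNK4, KCNK6 and SCN3B. On the day 2 array left out, KCNMB4 stood at 9.44, its highest level of the series. These stages describe where each maximum lay among the groups used and were not tested. They hold unequal numbers of groups, and no such count was made over all genes.

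**Figure D1:**
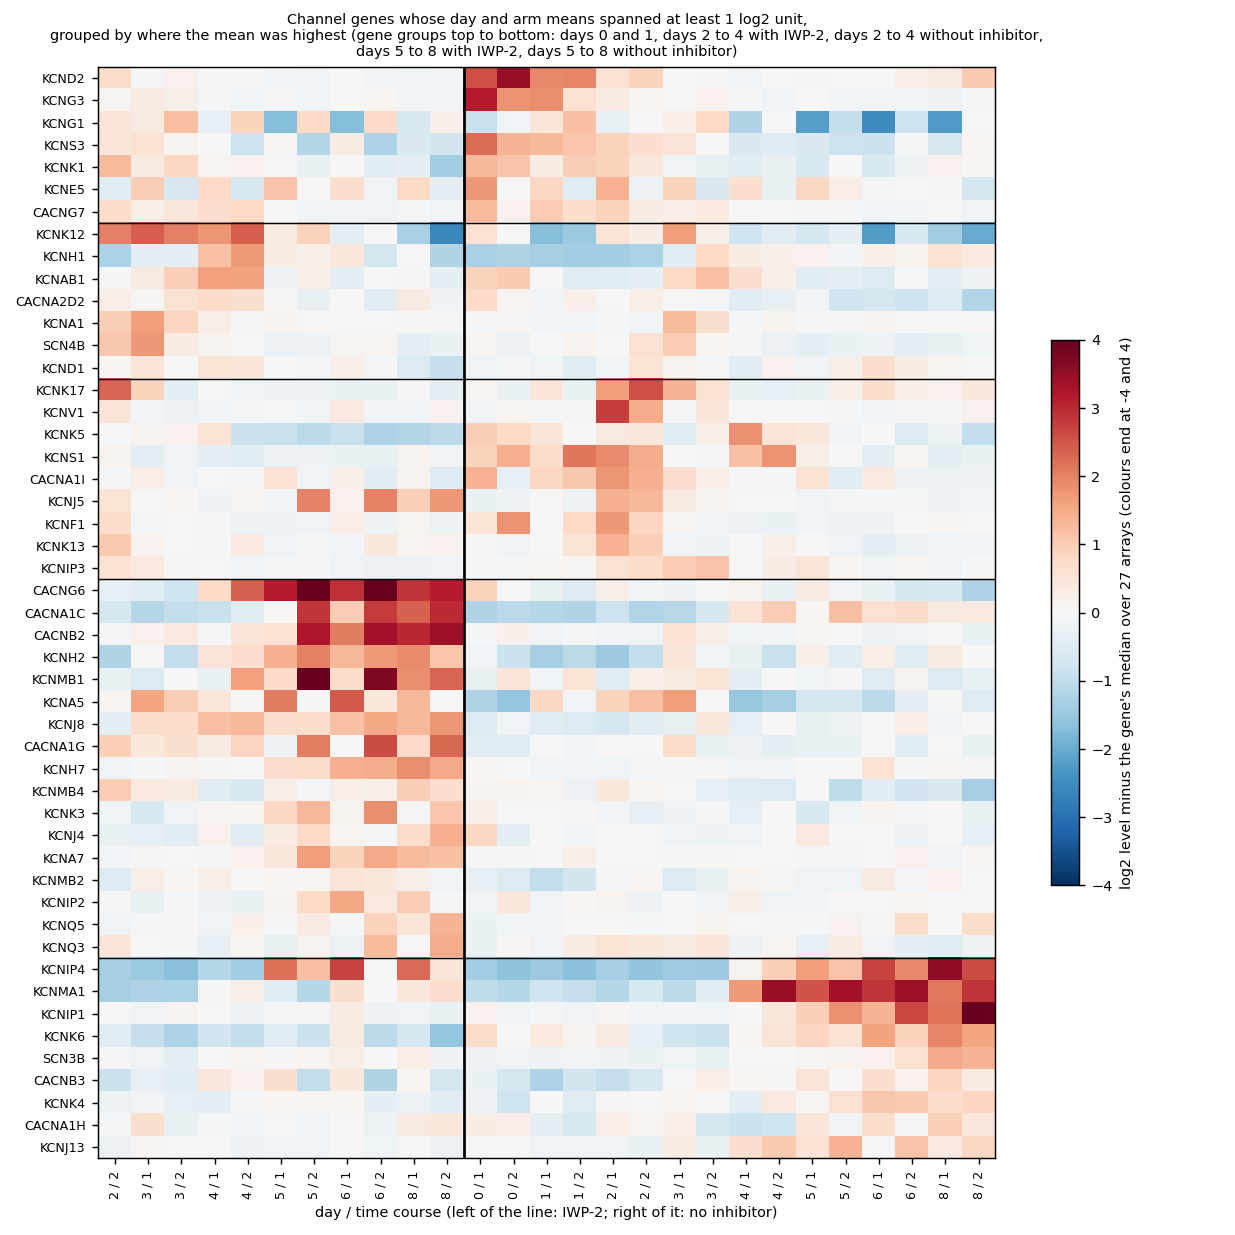
Heat map of the 49 channel genes whose group means ranged by at least 1: colour is the log2 level minus the gene's median over the 27 arrays, rows are genes and columns are arrays, with the IWP-2 arrays left of the line and those without inhibitor right of it. A reader should see a block of 17 genes whose highest group mean lay on days 5 to 8 with IWP-2. A block of 9 had it on the same days without inhibitor.

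The first comparison asks which channel genes differed at the end of the series, when IWP-2 had been given, from the cultures that never received it. On days 6 and 8 in 1 fit (4 arrays against 4), 35 of the 79 were called, 21 higher and 14 lower with IWP-2, which is 44.3% of them beside 35.0% of all genes (17.0% higher and 18.0% lower over all genes). A gene enters this set by being detected on as few as 2 arrays, so genes silent in one arm can be kept. The same filter was used for all genes, and its part in these shares was not tested. In 21 of the 35 the levels of the 4 IWP-2 arrays did not overlap those of the 4 others, and for all but 1, KCNK3, both time courses agreed in sign. Here and below, such overlaps were counted among called channel genes only, not over all genes. They come from the values that gave the calls and are no separate support for them. The median difference over the 79 was 0.09, and 18 of the called genes differed by at least 1. Without the dim IWP-2 array of day 8 in time course 2, 24 were called. With median scaling in place of quantile normalization, 16 were higher and 20 lower, with the median of all genes at -0.17.

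**Figure D2:**
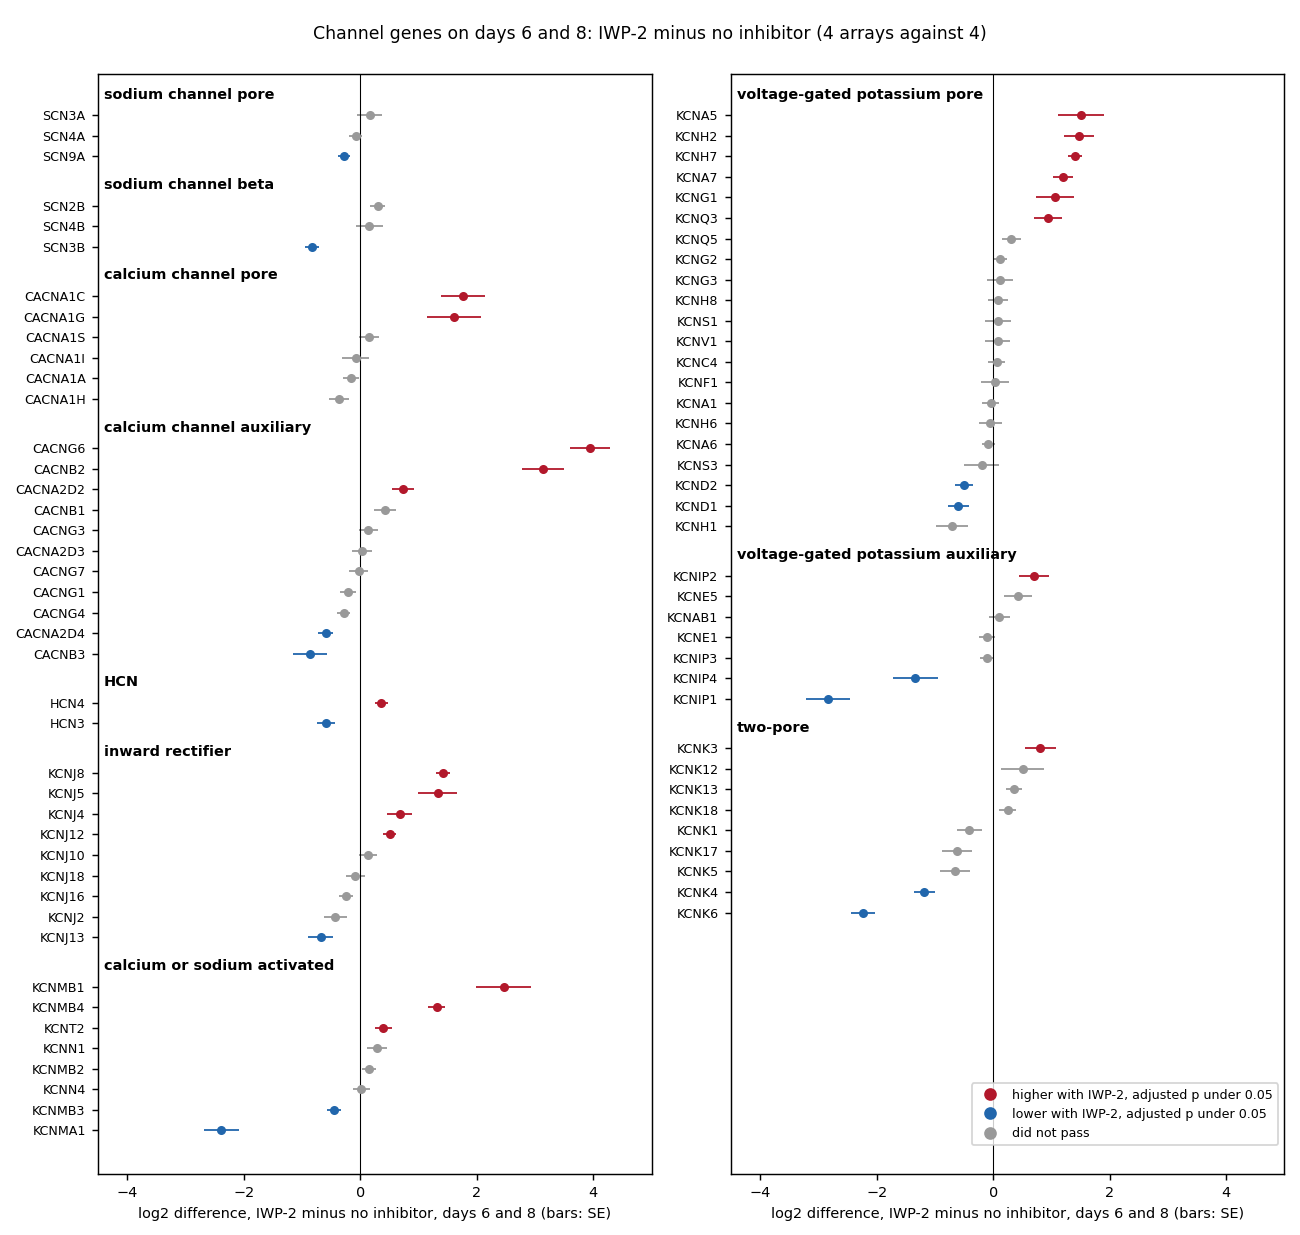
Log2 difference of each of the 79 channel genes, IWP-2 minus no inhibitor, on days 6 and 8 (4 arrays against 4), grouped by role: points are the fitted differences, bars are standard errors, red and blue mark genes called higher and lower. CACNG6 and CACNB2 stand furthest to the right (3.94 and 3.14), and KCNIP1, KCNMA1 and KCNK6 furthest to the left (-2.83, -2.39 and -2.24).

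Calcium channel genes held the largest rises with IWP-2. CACNG6, a gamma subunit, and CACNB2, the main beta subunit of cardiac calcium channels, stood far above the cultures without inhibitor. Both pore genes called, CACNA1C and CACNA1G, were also higher. Of 6 pore genes tested 2 were higher and none lower, and of 11 auxiliary genes 3 were higher and 2 lower.

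For the genes with a single listed transcription start, the 3 with the largest rises on these days (CACNG6, KCNMB1 and CACNA1C) and the one with the largest fall (KCNK6) are shown by the 250 bases before that start, from RefSeq (GRCh38.p14), to give the sequence context of genes that moved in opposite directions. Each is written 5′ to 3′ on the gene's strand, with every CpG in capitals: CACNG6 at chr19:53991387-53991636 (plus strand), KCNMB1 at chr5:170389368-170389617 (minus strand), CACNA1C at chr12:2052737-2052986 (plus strand) and KCNK6 at chr19:38319595-38319844 (plus strand).
CACNG6: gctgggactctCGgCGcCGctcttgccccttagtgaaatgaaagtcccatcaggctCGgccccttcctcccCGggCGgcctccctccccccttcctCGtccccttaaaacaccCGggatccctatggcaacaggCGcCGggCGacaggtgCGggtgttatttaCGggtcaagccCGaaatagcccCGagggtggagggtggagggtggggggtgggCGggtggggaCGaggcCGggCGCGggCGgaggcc
KCNMB1: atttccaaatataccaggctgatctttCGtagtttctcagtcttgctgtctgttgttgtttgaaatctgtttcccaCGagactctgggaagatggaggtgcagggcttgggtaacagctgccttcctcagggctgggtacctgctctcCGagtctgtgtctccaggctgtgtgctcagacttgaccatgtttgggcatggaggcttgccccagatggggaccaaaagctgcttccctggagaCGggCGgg
CACNA1C: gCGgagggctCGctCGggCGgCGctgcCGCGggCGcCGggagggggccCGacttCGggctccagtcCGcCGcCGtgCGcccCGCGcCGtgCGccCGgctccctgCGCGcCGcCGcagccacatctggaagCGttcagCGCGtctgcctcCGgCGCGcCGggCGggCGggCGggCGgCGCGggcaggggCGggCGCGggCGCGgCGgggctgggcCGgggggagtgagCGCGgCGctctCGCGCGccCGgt
KCNK6: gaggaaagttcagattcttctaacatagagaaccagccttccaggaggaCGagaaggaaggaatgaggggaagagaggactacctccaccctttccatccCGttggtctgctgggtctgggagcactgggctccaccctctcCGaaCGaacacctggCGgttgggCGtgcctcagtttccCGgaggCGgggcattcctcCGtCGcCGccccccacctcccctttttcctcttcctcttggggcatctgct
The CACNA1C start was the most CpG-dense of these, with 51 CpG and 85.6% G or C, more CpG than 99.9% of all listed starts. CACNG6 had 21 CpG, KCNK6 11 and KCNMB1 5, against a median of 11 over 35116 starts of 27305 genes. RefSeq starts were matched for 61 of the 79 channel genes, and their 91 starts had a median of 16 CpG. The median was 16 CpG for the 24 starts of genes called higher on days 6 and 8 and 14.5 for the 22 starts of genes called lower.

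Short motifs of factors that act in heart development or in WNT signalling were searched on both strands of these windows, and no overlap between motifs was found in the 4 windows shown. KCNK6 held the TEAD motif GGAATG at 191 and 59 bases before the start, and the other windows held none of the motifs searched. GGAATG was in 11.9% of all starts and in 7 of the 91 channel starts. The GATA motif AGATAA was in 9.17% of all starts and 5 of the 91, the NKX2-5 motif TNAAGTG in 8.73% and 2, the T-box motif GGTGTGA in 2.76% and 3, and the TCF/LEF motif ATCAAAG in 2.26% and 2. Of the 24 starts of genes called higher, AGATAA was in 0, TNAAGTG in 2, GGTGTGA in 1, GGAATG in 0 and ATCAAAG in 1, and of the 22 starts of genes called lower, in 3, 0, 1, 2 and 0 in the same order. A match is a run of letters, not a bound site.

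CACNG6 stood at 8.88 and 8.81 on days 6 and 8 of time course 1 with IWP-2 and at 10.02 and 9.11 on those days of time course 2, against 5.70, 5.34, 5.29 and 4.71 without inhibitor. All 4 IWP-2 arrays lay more than 3 units above those 4, and the last of those without inhibitor was undetected. The difference was 3.94 ± 0.35 (adjusted p = 4.1e-07). Its 2 other detected probes, each detected on 5 arrays, gave smaller called differences of 0.58 ± 0.14 and 0.82 ± 0.20.

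CACNB2 stood at 6.60, 7.55, 7.90 and 7.96 with IWP-2, in the same order of arrays, and was undetected on every array without inhibitor, at 4.26 to 5.11. It was at least 6.54-fold higher with IWP-2, the bright arrays set against the weakest detected signal, with a fitted difference of 3.14 ± 0.35 (adjusted p = 5.0e-06). A second probe gave 2.99 ± 0.35. With IWP-2 the gene was detected on day 5 in both time courses, at 5.10 and 7.76, and in time course 2 already on days 3 and 4, at 4.94 and 5.05.

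CACNA1C, the pore of the L-type channel that carries the plateau calcium current, stood at 6.65, 7.99, 8.43 and 8.59 with IWP-2, against 6.22, 5.97, 6.39 and 6.02 without. The groups did not overlap, though the day 6 array of time course 1 lay only just above the arrays without inhibitor. The difference was 1.76 ± 0.38 (adjusted p = 0.0017), with 1.22 from the first time course alone and 2.30 from the second. A weaker probe, detected on 2 arrays, gave 0.37 ± 0.15 and was not called (adjusted p = 0.071). On day 4 the order was the opposite: CACNA1C stood at 4.73 (undetected) and 5.21 with IWP-2 and at 6.21 and 6.64 without it.

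CACNA1G, a T-type pore subunit known from pacemaker tissue, stood at 4.76 (undetected), 5.50, 7.37 and 7.05 with IWP-2 and was undetected on all 4 arrays without, at 4.32 to 4.74. It was at least 2.59-fold higher, with a fitted difference of 1.60 ± 0.46 (adjusted p = 0.013). The difference was 2.82 for time course 2 and 0.39 for time course 1. The call ended without any of the 4 arrays of time course 2, at differences of 1.00 to 1.42.

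CACNA2D2, an accessory subunit that helps calcium channels to the cell surface, was at 6.64, 6.97, 6.22 and 6.42 with IWP-2 and 5.96, 6.08, 5.82 and 5.45 without (difference 0.73 ± 0.19, adjusted p = 0.0063). CACNB3, the beta subunit of many non-cardiac calcium channels, ran the other way, at 8.79, 8.43, 7.15 and 7.67 against 9.04, 9.23, 8.53 and 8.69, with groups that overlapped and a difference of -0.86 ± 0.29 (adjusted p = 0.031). That call ended without any array other than the IWP-2 arrays of time course 1, at differences of -0.90 to -0.53. CACNA2D4, detected on only 2 arrays of the series, differed by -0.60 ± 0.12 (adjusted p = 0.0013). The T-type pore genes CACNA1H and CACNA1I were not called, at -0.37 ± 0.17 (95% interval -0.73 to 0.00) and -0.08 ± 0.23 (-0.57 to 0.41).

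**Figure D3:**
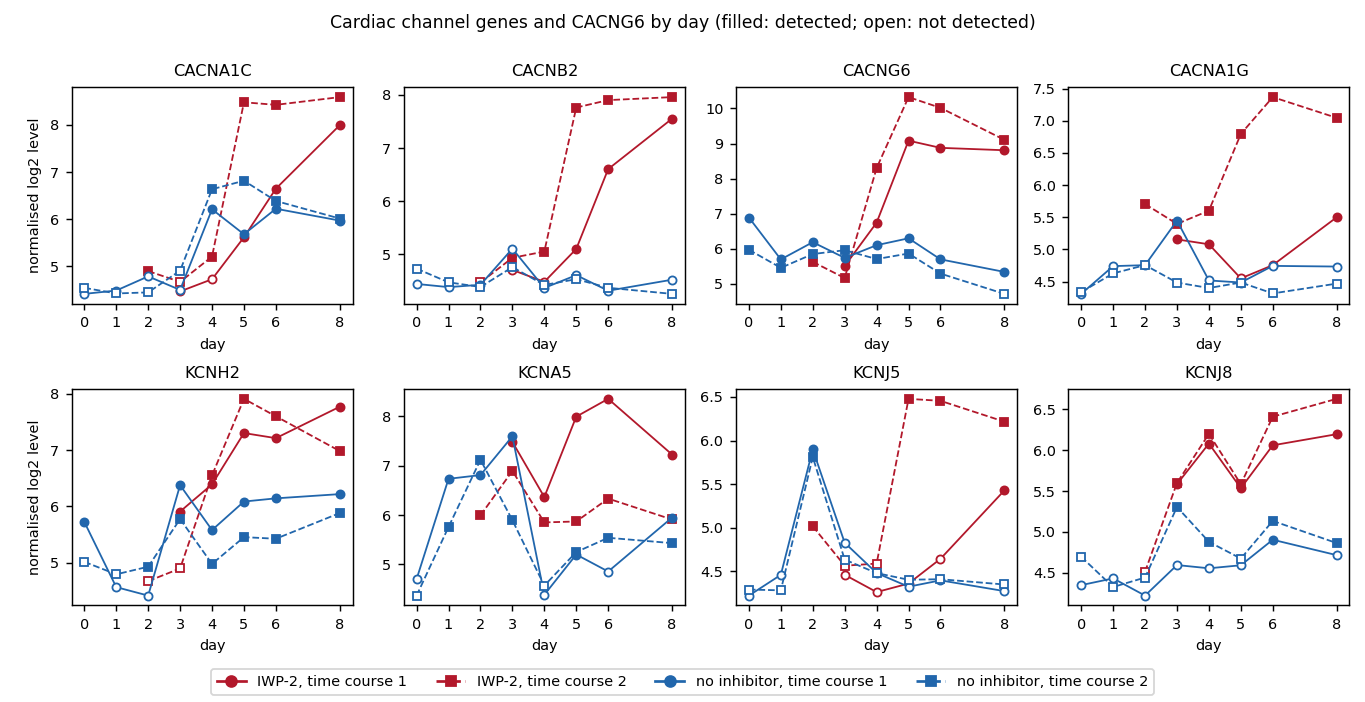
Log2 level (y axis) by day (x axis) for CACNA1C, CACNB2, CACNG6, CACNA1G, KCNH2, KCNA5, KCNJ5 and KCNJ8: red with IWP-2, blue without, solid lines and circles for time course 1, dashed lines and squares for time course 2, open symbols where the probe was undetected. The red dashed lines of CACNA1C, CACNB2, KCNJ5 and CACNA1G are already high on day 5 (8.48, 7.76, 6.48 and 6.80), where the red solid lines are at 5.62, 5.10, 4.36 and 4.55.

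Among the voltage-gated potassium pore genes, 6 of 21 were higher with IWP-2 and 2 lower. KCNH2, the pore of the rapid delayed rectifier of the heart, stood at 7.21, 7.77, 7.60 and 6.98 with IWP-2 and at 6.14, 6.22, 5.42 and 5.88 without. The groups were well apart, with a difference of 1.47 ± 0.25 (adjusted p = 2.8e-04). A weaker KCNH2 probe, detected on 3 arrays, gave 0.41 ± 0.14 (adjusted p = 0.032).

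KCNH7, a close relative of KCNH2, was at 5.73, 6.17, 5.81 and 5.83 with IWP-2 and detected on 1 of 4 arrays without, at 4.91, 4.44, 4.28 and 4.27. The difference of 1.41 ± 0.12 (adjusted p = 3.0e-07) was even in both time courses, 1.28 and 1.54. It was undetected on every earlier array of both arms up to day 4 and appeared on day 5 with IWP-2, at 4.98 and 5.07. KCNA7, a delayed rectifier of heart and skeletal muscle, was at 5.24, 5.61, 5.84 and 5.55 with IWP-2 and undetected on all 16 arrays without. The rise was at least 1.70-fold (fitted 1.20 ± 0.17, adjusted p = 5.4e-05).

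KCNA5, the pore of the ultrarapid current of atrial muscle, was at 8.36, 7.23, 6.33 and 5.91 with IWP-2, against 4.85 (undetected), 5.95, 5.54 and 5.43 without. The groups overlapped, and the difference of 1.51 ± 0.39 (adjusted p = 0.0067) was larger for time course 1 (2.39) than for time course 2 (0.64), the reverse of CACNA1G. KCNG1, a modifier subunit that forms no channel alone, differed by 1.06 ± 0.33 (adjusted p = 0.018) with overlapping groups. Its call ended without the IWP-2 array of day 8 or either array without inhibitor in time course 1. It also ended without the IWP-2 array of day 6 in time course 2, with 0.73 to 0.95 over these omissions. A weaker KCNG1 probe, detected on 6 arrays, gave 0.28 ± 0.13 and was not called. KCNQ3, a subunit of the neuronal M current, was detected only on the 2 late IWP-2 arrays of time course 2 among these 8, at 5.97 and 6.18, and was at least 1.45-fold higher (fitted 0.94 ± 0.24, adjusted p = 0.0057).

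The transient outward current of the heart is carried by KCND pores with KCNIP proteins, calcium-binding subunits that raise the current. Here the KCNIP genes parted in both directions. KCNIP1 was undetected on all 4 IWP-2 arrays, at 4.19 to 4.75, and stood at 5.83, 6.63, 7.11 and 9.24 without inhibitor. It was at least 4.98-fold lower with IWP-2 (fitted -2.83 ± 0.38, adjusted p = 2.5e-05), and a second probe gave -1.62 ± 0.27. KCNIP1 was undetected on every IWP-2 array of the series.

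KCNIP4 stood at 8.58, 8.14, 5.89 and 6.38 with IWP-2 and at 8.60, 9.43, 7.82 and 8.50 without. The groups overlapped, and the difference of -1.34 ± 0.38 (adjusted p = 0.012) was smaller for time course 1 (-0.65) than for time course 2 (-2.02). The call ended without the IWP-2 array of day 6 or day 8 in time course 2, at -0.78 and -1.03. Its 2 weaker probes gave -0.79 ± 0.27 (adjusted p = 0.031) and 0.13 ± 0.15 (not called).

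KCNIP2, the subunit on which the cardiac transient outward current depends, was at 6.08, 5.55, 4.90 and 4.46 (undetected) with IWP-2 and undetected on all 4 arrays without, at 4.51 to 4.60. The difference of 0.70 ± 0.25 (adjusted p = 0.040) came from time course 1 (1.29, beside 0.11 for time course 2). Without any array other than the IWP-2 arrays of time course 2 it was called no longer, at 0.41 to 0.75. Of the pores, KCND2 differed by -0.50 ± 0.15 and KCND1 by -0.60 ± 0.18 (both adjusted p = 0.015). KCND2 was undetected with IWP-2 and detected on 1 array without, and its call ended without any of the 4 arrays of time course 2, at -0.49 to -0.37. That of KCND1 ended without either IWP-2 array of time course 2 or the day 6 array without inhibitor of time course 1, at -0.54 to -0.51. KCNE1 and KCNE5, small subunits of delayed rectifiers, were not called, at -0.10 ± 0.13 (95% interval -0.38 to 0.17) and 0.43 ± 0.24 (-0.07 to 0.93).

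Of 9 inward rectifier genes 4 were higher with IWP-2 and 1 lower. KCNJ8, a pore of the ATP-sensitive channels of heart and vessels, stood at 6.06, 6.20, 6.41 and 6.63 with IWP-2 and at 4.90, 4.72, 5.13 and 4.86 without. All 4 IWP-2 arrays were detected and lay apart from the others, with a difference of 1.42 ± 0.12 (adjusted p = 2.7e-07) that was 1.32 and 1.52 in the time courses. KCNJ5, a subunit of the acetylcholine-gated channel of atrial and nodal muscle, was at 4.64 (undetected), 5.43, 6.46 and 6.22 with IWP-2 and undetected on all 4 arrays without, at 4.27 to 4.41. The rise was at least 1.86-fold (fitted 1.33 ± 0.33, adjusted p = 0.0049), and a second probe gave 0.97 ± 0.22.

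KCNJ12 and KCNJ2 encode pores of the current that holds resting cardiac muscle polarised. KCNJ12, whose sequence is nearly identical to that of KCNJ18 so that the probe cannot be assigned with certainty, was detected on 2 of 4 arrays with IWP-2 and 0 of 4 without, at least 1.02-fold higher (fitted 0.50 ± 0.11, adjusted p = 0.0016). KCNJ2 was not called, at -0.43 ± 0.19 (adjusted p = 0.096, 95% interval -0.83 to -0.02). It was detected on 1 of 4 arrays with IWP-2 and 3 of 4 without. KCNJ4 differed by 0.68 ± 0.22 (adjusted p = 0.022) and KCNJ13, an inward rectifier of epithelia, by -0.68 ± 0.21 (adjusted p = 0.021). Both calls ended without any of the 4 arrays of time course 2 (0.45 to 0.69 and -0.60 to -0.40), that of KCNJ4 also without the IWP-2 array of day 6 in time course 1, and a second KCNJ4 probe gave -0.01 ± 0.19.

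HCN4, the main pore of the pacemaker current, moved little. It stood at 4.98, 5.41, 5.36 and 5.22 with IWP-2 and at 4.94, 4.93, 4.86 and 4.81 without, all near the detection limit and not overlapping, with a difference of 0.36 ± 0.11 (adjusted p = 0.018). The call ended without any array of time course 2 but the IWP-2 array of day 8, and without that of day 8 in time course 1, at 0.25 to 0.34. HCN3 was lower, at 5.81, 5.66, 5.47 and 5.23 against 6.38, 6.06, 5.86 and 6.22 (difference -0.59 ± 0.16, adjusted p = 0.0086), a call that ended without the day 6 array that had no inhibitor in time course 1 or the IWP-2 array of day 8 in time course 2, at -0.49 to -0.46. Beside them, 1 of 5 pacemaker markers was called higher.

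Sodium channel genes were few, with 3 pore and 3 beta genes detected. SCN3B, a beta subunit, was undetected on all 4 IWP-2 arrays, at 4.34 to 4.82, and stood at 4.71 (undetected), 6.06, 5.14 and 5.90 without. The fall was at least 1.48-fold (fitted -0.83 ± 0.12, adjusted p = 5.1e-05). SCN9A, a pore gene of sensory neurons detected on 2 arrays of the series, differed by -0.28 ± 0.10 (adjusted p = 0.043), a call that ended in 12 of the single-array omissions, at -0.30 to -0.22. SCN4B, a beta subunit found in heart, was undetected on all 8 arrays, with a difference of 0.16 ± 0.23 (95% interval -0.34 to 0.65).

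KCNMA1, the pore of the large-conductance calcium-activated (BK) potassium channel, went the opposite way to the BK beta subunit genes KCNMB1 and KCNMB4. Of the other BK beta genes, KCNMB3 was lower like KCNMA1 and KCNMB2 was not called. KCNMA1 stood at 6.28, 6.06, 5.65 and 6.30 with IWP-2 and at 8.50, 7.77, 9.07 and 8.51 without, a difference of -2.39 ± 0.29 (adjusted p = 1.2e-05). The 2 groups lay more than 1 unit apart. KCNMB1, the beta subunit of smooth muscle, was at 5.69, 6.84, 8.70 and 7.30 with IWP-2 and at 4.48, 4.42, 5.12 and 4.66 without, where only the day 6 array of time course 2 was detected (difference 2.46 ± 0.47, adjusted p = 6.9e-04).

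KCNMB4, the beta subunit best known from brain, was at 8.69, 9.39, 8.63 and 9.10 with IWP-2 and at 8.00, 7.84, 7.66 and 7.08 without (difference 1.31 ± 0.14, adjusted p = 4.0e-06). KCNMB3 differed by -0.45 ± 0.13 (adjusted p = 0.011), a call that ended without the IWP-2 array of day 6 in time course 1 or the day 6 array without inhibitor in time course 2, at -0.34 to -0.33. KCNT2, a sodium-activated potassium channel, differed by 0.39 ± 0.15 (adjusted p = 0.049) and was called no longer in 18 of the 27 single-array omissions, at 0.27 to 0.44. Beside these BK genes stand the smooth muscle marker sums given above, lower with IWP-2 while MYH11 was detected only with it.

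**Figure D4:**
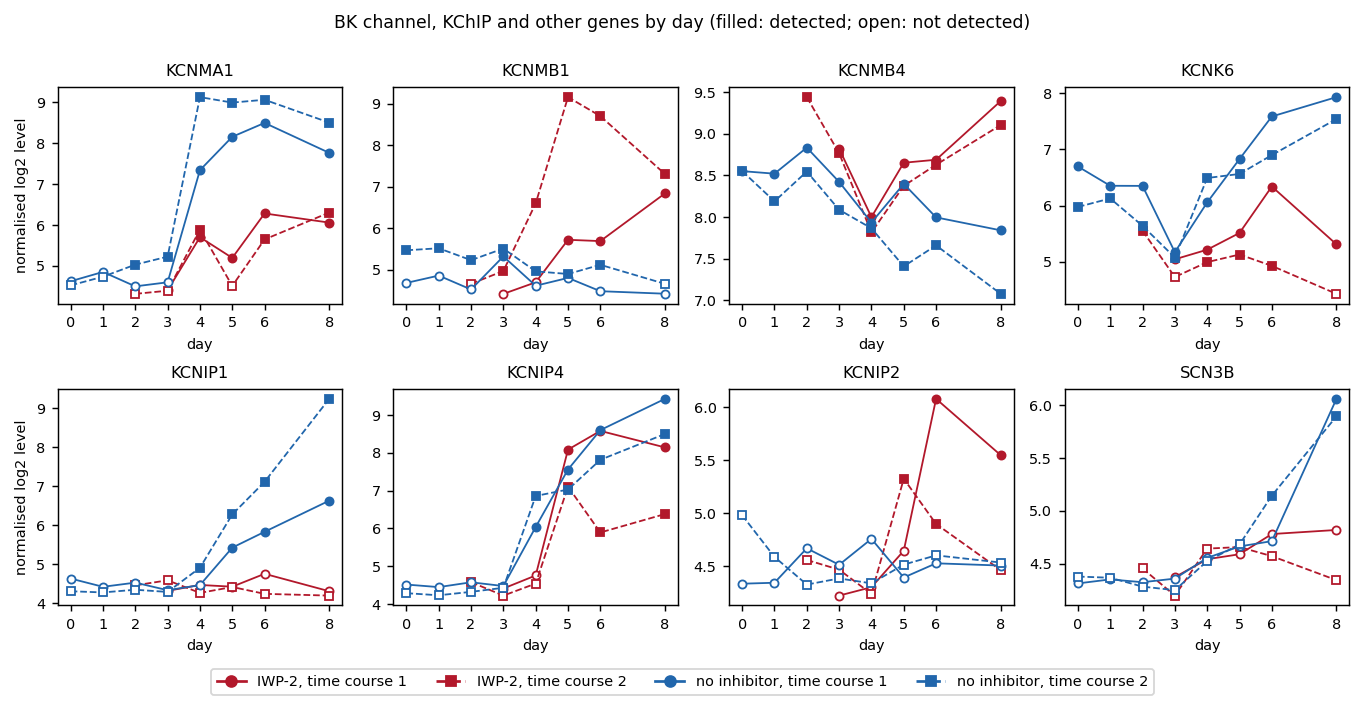
Log2 level (y axis) by day (x axis) for KCNMA1, KCNMB1, KCNMB4, KCNK6, KCNIP1, KCNIP4, KCNIP2 and SCN3B, drawn as in the plot of the calcium channel genes. Without inhibitor KCNMA1 climbs to 7.34 and 9.13 by day 4, while KCNMB1 is high only on the IWP-2 arrays, at 8.70 on day 6 of time course 2.

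K2P genes encode the leak channels that help to set the resting potential. Of the 9 tested, 1 was higher and 2 lower with IWP-2. KCNK6 stood at 6.34, 5.31, 4.93 and 4.43 (undetected) with IWP-2 and at 7.59, 7.93, 6.90 and 7.54 without. The groups were apart, with a difference of -2.24 ± 0.21 (adjusted p = 6.8e-07) that was -1.93 and -2.54 in the time courses. A second KCNK6 probe, detected on 9 arrays, did not follow it, at -0.09 ± 0.15.

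KCNK4, a stretch-sensitive leak channel, was at 6.02, 5.70, 5.55 and 5.51 with IWP-2 and at 7.03, 6.66, 6.99 and 6.81 without (difference -1.18 ± 0.18, adjusted p = 9.7e-05). KCNK3, an acid-sensitive leak channel of heart and vessels, was at 5.38 and 5.17 with IWP-2 in time course 1 and 7.09 and 6.33 in time course 2, against 5.37, 5.23, 5.18 and 4.95. Its difference of 0.81 ± 0.26 (adjusted p = 0.024) came from time course 2 (1.64, beside -0.03 for time course 1), and the call ended without any of the 4 arrays of that course, at 0.43 to 0.68. KCNK1, another leak channel, was not called, at -0.41 ± 0.22 (95% interval -0.87 to 0.06).

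Of a set of 29 channel genes known from the heart, 5 had no named probe and are not analysed here, and 7 were detected on fewer than 2 arrays: CACNA1D, CACNA2D1, HCN2, KCNQ1, KCNE2, KCND3 and KCNJ11. The other 17 are described above.

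The second comparison asks what had already moved while the inhibitor was present or just removed. On days 3 and 4 (4 arrays against 4) 9 of the 79 were called, 5 higher and 4 lower with IWP-2, or 11.4% beside 4.37% of all genes (2.08% higher and 2.29% lower over all genes). In 5 of the 9 the groups did not overlap. None of the cardiomyocyte markers was called on these days (0 of 7), with summed levels of 521 to 16691 with IWP-2 and 462 to 2458 without, while 2 of 8 smooth muscle and fibroblast markers were higher and 1 lower, with sums of 856 to 2872 and 1010 to 16769.

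KCNK12, a K2P gene, had the largest early rise, at 11.63 and 10.99 on days 3 and 4 of time course 1 with IWP-2 and 11.25 and 11.63 in time course 2, against 10.91, 8.44, 9.48 and 8.78 without. All 4 IWP-2 arrays were above the others, although the day 3 array without inhibitor in time course 1 came close (difference 1.98 ± 0.37, adjusted p = 0.0044). On day 2 of time course 2, 1 day after the first addition, it was at 11.25 with IWP-2 and 9.54 without. By day 8 it stood at 7.94 and 6.65 with IWP-2 and 7.86 and 7.22 without, and the days 6 and 8 difference of 0.51 ± 0.37 was not called.

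KCNJ8 had already separated, at 5.58, 6.08, 5.60 and 6.20 with IWP-2 and 4.59, 4.55, 5.30 and 4.88 without (difference 1.03 ± 0.12, adjusted p = 8.2e-05). KCNMA1 was at 4.40 (undetected), 5.70, 4.39 (undetected) and 5.89 with IWP-2, against 4.60 (undetected), 7.34, 5.23 and 9.13 without (difference -1.48 ± 0.29, adjusted p = 0.0070). The gap lay on day 4, where both arrays without inhibitor were above both with it. KCNS1, a modifier subunit, was undetected with IWP-2, at 4.26 to 4.53, and was detected on day 4 without it, at 5.85 and 6.47. The fall was at least 1.37-fold (fitted -1.08 ± 0.22, adjusted p = 0.0083), a call that ended without either day 4 array of time course 2, at -1.03 and -0.96.

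The other early calls were CACNA2D2 (0.74 ± 0.19), CACNG1, a gamma subunit of skeletal muscle (0.51 ± 0.14), KCNJ12 (0.43 ± 0.11), KCNIP3 (-0.55 ± 0.12) and KCNA6, a voltage-gated pore gene (-0.53 ± 0.11). Each of these 5 calls ended when single arrays were left out: CACNA2D2 without any of the 8 but the IWP-2 array of day 3 in time course 1 (0.53 to 0.83), KCNJ12 without any but that of day 4 (0.36 to 0.46), and KCNIP3 without any of time course 2 (-0.52 to -0.46). The KCNA6 call ended without the IWP-2 arrays of time course 2 or those without inhibitor of time course 1 (-0.53 to -0.43), and the CACNG1 call in 19 of the 27 omissions (0.41 to 0.57). The count of called channel genes dropped to 4 without the IWP-2 array of day 3 in time course 2, to 3 without that of day 4, and to 5 and 4 without the arrays of the same days and time course that had no inhibitor. KCNK12, KCNJ8 and KCNMA1 were called in every omission.

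The change of the inhibitor effect between these stages was itself tested. It was called for 21 of the 79 (26.6%, beside 18.3% of all genes), 12 with a more positive and 9 with a more negative effect on days 6 and 8 than on days 3 and 4 (9.10% and 9.20% of all genes). CACNG6 had an effect of 3.94 late and 0.55 ± 0.35 early (change 3.39 ± 0.49, adjusted p = 2.7e-04), CACNB2 3.14 and 0.13 ± 0.35 (change 3.01 ± 0.50, adjusted p = 7.7e-04), and CACNA1C 1.76 and -0.79 ± 0.38 (change 2.56 ± 0.54, adjusted p = 0.0040). KCNIP1 and KCNK6 changed the other way, by -2.74 ± 0.53 and -1.53 ± 0.29 (adjusted p = 0.0023 and 0.0020). The early effect of CACNG6 was -0.23 and -0.79 on day 3 (time courses 1 and 2) and 0.64 and 2.60 on day 4. Leaving out the uninhibited day 4 array of time course 1 gave 13 calls.

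The arm without inhibitor shows what the channel genes did during differentiation alone. On day 2 against day 0 (2 arrays each), 12 of the 79 were called, 7 higher and 5 lower, or 15.2% beside 14.2% of all genes (7.68% higher and 6.57% lower over all genes), and in none of the 12 did the days overlap. The comparisons with day 0 share the same 2 day 0 arrays. Leaving out the day 2 array of time course 2 gave 6 calls. Undifferentiated-cell markers summed to 7988 to 8170 on day 2 and 16879 to 19639 on day 0, with 5 of 6 called lower. RNA quality and stress genes summed to 2202 to 2213 on day 2 and 4207 to 4287 on day 0, with 3 of 8 called lower, and their part in these changes was not tested.

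Several genes peaked on day 2 and were undetected on day 4 without inhibitor. KCNK17, a K2P gene, was at 6.38 and 7.29 on day 2 and undetected on day 0, at 4.81 and 4.44, at least 3.69-fold higher (fitted 2.21 ± 0.36, adjusted p = 5.1e-04). KCNV1, a modifier subunit, was at 7.19 and 5.89 on day 2, undetected on every other array without inhibitor, and at least 3.01-fold higher than on day 0 (fitted 2.17 ± 0.30, adjusted p = 1.0e-04). KCNK13, another K2P gene, was at 5.93 and 5.50 on day 2 and undetected on day 0 (at least 1.70-fold higher, fitted 1.30 ± 0.21, adjusted p = 4.0e-04).

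KCNA5 was at 6.81 and 7.12 on day 2 and undetected on day 0, at 4.70 and 4.37 (at least 4.05-fold higher, fitted 2.43 ± 0.56, adjusted p = 0.0075), and KCNJ5 at 5.90 and 5.81 on day 2 and undetected on day 0, at 4.22 and 4.29 (at least 1.87-fold higher, fitted 1.60 ± 0.47, adjusted p = 0.030). Both had been detected here before the late stage at which they were higher with IWP-2. Their day 2 calls ended for KCNA5 on leaving out the day 0 array of time course 1 (2.24) or the day 2 array of time course 2 (1.89), and for KCNJ5 without any of the 4 arrays of days 0 and 2, at 1.34 to 1.85. A second KCNJ5 probe gave 0.74 ± 0.31 and was not called (adjusted p = 0.15), and averaging both probes ended the call. CACNA1I, a T-type pore gene (1.06 ± 0.33), and KCNIP3 (0.72 ± 0.17) were also called higher, the first ending without any uninhibited day 2 or day 6 array or the time course 2 day 0 array (0.40 to 1.13), the second ending only without the uninhibited day 2 array in time course 2 (0.65).

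Of the 5 genes called lower on day 2, 4 were potassium channel genes. KCND2 was at 4.92 (undetected) and 5.26 on day 2 and at 6.93 and 7.85 on day 0 (difference -2.30 ± 0.21, adjusted p = 1.8e-06). KCNG3, a modifier subunit, was undetected on day 2, at 4.74 and 4.48, and at 7.59 and 6.21 on day 0, at least 3.82-fold lower (fitted -2.29 ± 0.32, adjusted p = 1.3e-04). It stayed undetected on every later array of both arms. KCNAB1, an auxiliary subunit of KCNA channels, was undetected on day 2 and at 5.68 and 5.81 on day 0 (at least 1.72-fold lower, fitted -1.42 ± 0.25, adjusted p = 0.0011), and returned on days 3 and 4.

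KCNH6, a relative of KCNH2, had 2 further probes that did not pass the detection filter. Its brightest probe stood at 11.02 to 12.38 on all 27 arrays. It was at 11.55 and 11.02 on day 2 and at 12.10 and 12.38 on day 0 (difference -0.95 ± 0.28, adjusted p = 0.033), a call that ended without any of these 4 arrays, at -1.19 to -0.72. SCN4A, the sodium channel pore of skeletal muscle, differed by -0.54 ± 0.15, and its call ended without either day 2 array or the day 0 array of time course 1, at -0.57 to -0.30.

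**Figure D5:**
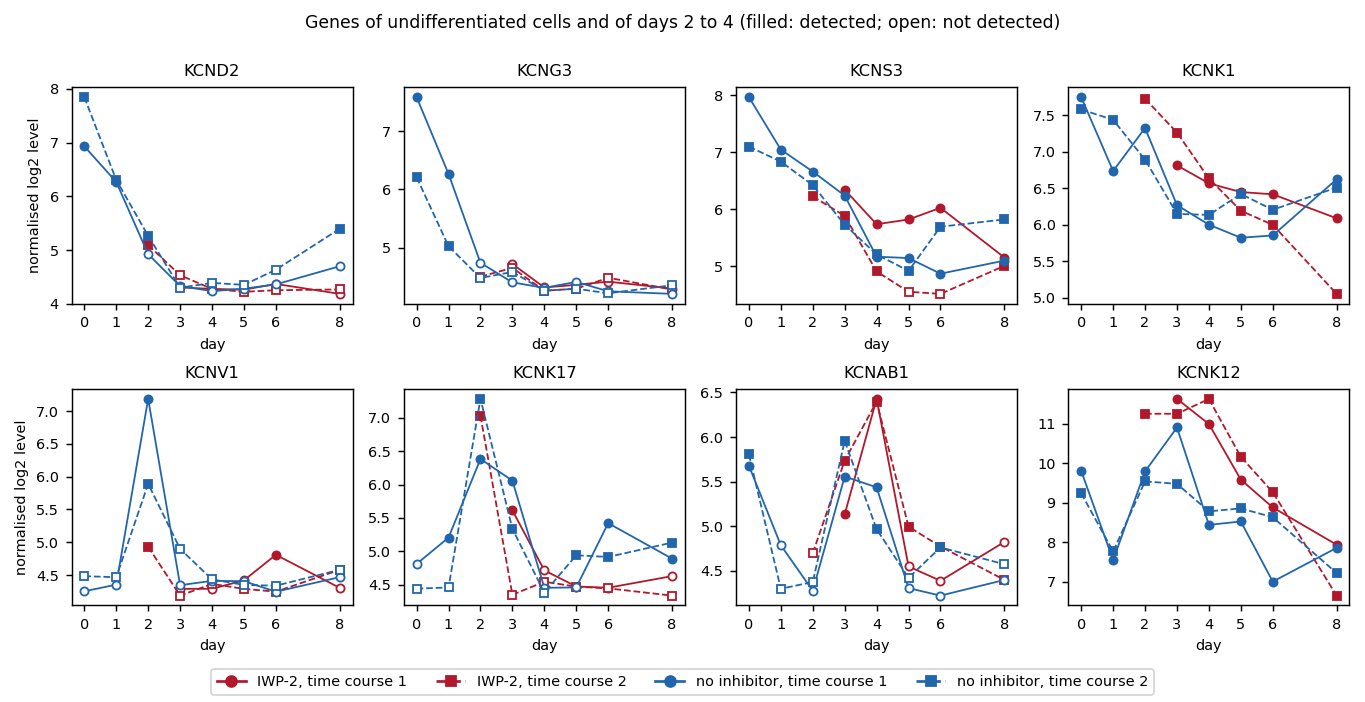
Log2 level (y axis) by day (x axis) for KCND2, KCNG3, KCNS3, KCNK1, KCNV1, KCNK17, KCNAB1 and KCNK12, drawn as in the plot of the calcium channel genes. KCND2 and KCNG3 start at 6.93 and 7.85 and at 7.59 and 6.21 and reach the undetected level by day 3, KCNV1 and KCNK17 peak on day 2, and KCNK12 is highest on the IWP-2 arrays of days 2 to 4.

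On day 8 against day 0 without inhibitor, 30 of the 79 were called, 14 higher and 16 lower, or 38.0% beside 43.2% of all genes (21.7% higher and 21.5% lower over all genes), and in none of the 30 did the days overlap. Of the 21 voltage-gated potassium pore genes 1 was higher and 6 lower. All 6 undifferentiated-cell markers were lower, and 5 of 8 smooth muscle and fibroblast markers and all 5 endothelial markers were higher. Of 9 neuronal markers 2 were higher and 5 lower, and of 8 RNA quality and stress genes 2 were higher and 3 lower. Leaving out the day 8 array of time course 2 gave 19 calls.

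KCNIP4 had the largest rise, at 9.43 and 8.50 on day 8 and undetected on day 0, at 4.52 and 4.29 (at least 16.2-fold higher, fitted 4.56 ± 0.54, adjusted p = 5.7e-06). Its weaker probes gave 2.30 ± 0.38 (called) and 0.09 ± 0.21 (not called). KCNMA1 was at 7.77 and 8.51 on day 8 and undetected on day 0 (at least 9.11-fold higher, fitted 3.56 ± 0.42, adjusted p = 4.9e-06), and KCNIP1 at 6.63 and 9.24 and undetected on day 0 (at least 7.93-fold higher, fitted 3.47 ± 0.53, adjusted p = 7.0e-05). These 3 were also lower with IWP-2 late, in a comparison that shares the day 8 arrays.

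KCNK6 was at 7.93 and 7.54 on day 8 and at 6.70 and 5.98 on day 0 (difference 1.40 ± 0.29, adjusted p = 9.9e-04). KCNH1, a voltage-gated pore gene of brain, was at 6.15 and 5.97 on day 8 and undetected on day 0 (at least 2.16-fold higher, fitted 1.73 ± 0.39). SCN3B (1.64 ± 0.17), KCNK4 (1.30 ± 0.26), CACNB3 (1.09 ± 0.42, lost in 12 of 27 omissions at 1.02 to 1.16) and CACNA1C (1.51 ± 0.54, adjusted p = 0.032) also rose, although the CACNA1C call ended without any of the 4 arrays, at 1.21 to 1.81, and its weaker probe gave 0.14 ± 0.21. KCNG3 (-2.62 ± 0.32), KCND2 (-2.34 ± 0.21), KCNS3 (-2.07 ± 0.43), KCNK12 (-1.99 ± 0.52), KCNS1 (-1.51 ± 0.31), KCNK5 (-1.47 ± 0.36), CACNG6 (-1.41 ± 0.49) CACNA2D2 (-1.30 ± 0.27), KCNAB1 (-1.26 ± 0.25) and KCNE5 (-1.22 ± 0.33) fell. Of these 10, the KCNE5 call ended without the day 0 or day 8 array of time course 1 (-0.99 to -0.88), and the CACNG6 and KCNK12 calls ended on leaving out the day 0 array of time course 1 or the day 8 array of time course 2, at -1.03 to -0.88 for CACNG6 and -1.70 to -1.66 for KCNK12. The 2 other CACNG6 probes were not called, at 0.02 ± 0.20 and -0.18 ± 0.29.

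On day 8 with IWP-2 against day 0, 32 were called, 20 higher and 12 lower, or 40.5% beside 44.8% of all genes (22.3% higher and 22.5% lower over all genes), and 31 of the 32 did not overlap. All 7 cardiomyocyte markers and 5 of 8 smooth muscle and fibroblast markers were higher, all 6 undifferentiated-cell markers were lower, and of 8 RNA quality and stress genes 2 were higher and 3 lower. CACNA1C was at 7.99 and 8.59 on day 8 with IWP-2 and undetected on day 0, at 4.42 and 4.55 (at least 10.1-fold higher, fitted 3.81 ± 0.54, adjusted p = 2.9e-05). Its weaker probe gave 0.52 ± 0.21 and was not called (adjusted p = 0.060). CACNB2 was at least 6.99-fold higher (fitted 3.17 ± 0.50) and KCNJ8 at least 2.76-fold (fitted 1.89 ± 0.17). KCNH2 was at 7.77 and 6.98 and at 5.72 and 5.01 (undetected) on day 0 (difference 2.01 ± 0.36, adjusted p = 2.6e-04).

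KCNK6 fell in this arm, to 5.31 and 4.43 (undetected) on day 8 with IWP-2, against 6.70 and 5.98 on day 0 (difference -1.47 ± 0.29, adjusted p = 6.3e-04), where it had risen without inhibitor. The second KCNK6 probe was called in neither arm (0.11 ± 0.21 with IWP-2 and 0.27 ± 0.21 without). KCND2 was undetected, at least 5.43-fold lower (fitted -3.17 ± 0.21, adjusted p = 1.6e-08). KCNK1 was at 6.09 and 5.06 on day 8 and at 7.75 and 7.58 on day 0 (difference -2.09 ± 0.31, adjusted p = 4.5e-05). KCNG3 (-2.61 ± 0.32), KCNS3 (-2.45 ± 0.43), KCNK12 (-2.23 ± 0.52), KCNK5 (-1.99 ± 0.36), KCNF1 (-1.21 ± 0.34), KCNS1 (-1.20 ± 0.31) and KCNAB1 (-1.13 ± 0.25) fell as well. Of these, the calls of KCNF1 (-1.04 to -0.54) and KCNS1 (-1.02 to -0.93) ended without the day 0 or day 8 array of time course 2, and that of KCNK12 without its day 8 array (-1.55).

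KCNIP4 (2.86 ± 0.54), CACNG6 (2.53 ± 0.49), KCNA5 (2.03 ± 0.56), KCNMB1 (1.99 ± 0.67), CACNA1G (1.95 ± 0.66), KCNH7 (1.64 ± 0.17) and KCNMA1 (1.61 ± 0.42) were the other large rises. Of these, the CACNA1G call ended without either day 0 array or the day 8 array of time course 2 (1.33 to 2.16), and that of KCNMB1 without either day 0 array or the day 8 array of time course 1 (1.70 to 2.11). The KCNA5 call ended without the day 0 or day 8 array of time course 1 (1.85 and 1.69), and that of KCNMA1 on leaving out the day 0 array of time course 2 (1.39). The weaker KCNIP4 probes gave 1.05 ± 0.38 (called) and 0.09 ± 0.21 (not called). Those of CACNG6 gave 0.57 ± 0.20 (called) and 0.54 ± 0.29 (not called).

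The inhibitor effect over days 3, 4, 5, 6 and 8 was also compared between the time courses, in which the additions of IWP-2 lay 1 day apart. CACNA1G was the 1 channel gene called of 79, beside 0.479% of all genes (0.0958% higher and 0.383% lower over all genes), at 1.67 ± 0.34 (adjusted p = 0.043). This fitted term sets the offset between the time courses on the IWP-2 arrays against that on all arrays without inhibitor, those of days 0, 1 and 2 included. Over the 5 days shared by both arms alone, the effect on CACNA1G averaged 2.01 for time course 2 and 0.22 for time course 1. The call ended in 20 of the 27 single-array omissions, at 1.37 to 1.70. CACNG6 (1.17 ± 0.27, adjusted p = 0.063), KCNJ5 (1.06 ± 0.28, adjusted p = 0.080) and CACNB2 (1.06 ± 0.31, adjusted p = 0.11) were not called.

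Some genes differed between the time courses in both arms. KCNG1 was higher in time course 2 in all 13 day and arm pairs, by 0.29 to 2.47 and 1.27 on average, and KCNE5 was lower there in 12 of 13, by -1.11 on average. KCNMB1 was higher there in all 13 as well, but unevenly, by 3.44 on day 5 with IWP-2 and by 0.09 on day 5 without. These offsets were not tested.

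Genes outside the set that act in excitability and calcium handling were read in the same fits. Of 44 listed, 26 were tested, and on days 6 and 8 13 were higher and 3 lower with IWP-2, with a median difference of 0.43. That is 61.5% called, beside 35.0% of all genes (17.0% higher and 18.0% lower). None was called on days 3 and 4 (3 at an unadjusted limma p under 0.05), beside 4.37% of all genes. The list was chosen with earlier results of these data known. PLN, the regulator of the calcium pump of the sarcoplasmic reticulum (4.65 ± 0.44), the pump ATP2A2 (2.72 ± 0.28), the calcium release channel RYR2 (2.84 ± 0.25) and the sodium-calcium exchanger SLC8A1 (at least 6.22-fold higher, fitted 3.09 ± 0.63) rose. The gap junction gene GJA1 fell by 2.72 ± 0.32 on the log2 scale.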

How the data were processed

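Total RNA was measured on 27 Illumina bead arrays. The authors deposited scanner intensities with a detection p-value per probe, summarised in GenomeStudio per the submitters' processing notes (version not given in the sources used here), and a table of processed values whose normalization the file headers do not state. Both p-values and intensities were used as deposited. The authors' intensities were put through neqc of limma 3.58.1 in R 4.3.3 (background correction by detection p-values, offset 16, quantile normalization). The log2 levels printed were thus computed from the deposited values. Of 47323 probes, 30113 carried 1 gene symbol, 8 several and 17202 none listed. Each gene is read through its probe with the highest mean signal, and its detection p-value had to be under 0.01 on at least 2 arrays.

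One model over all 27 arrays fitted 1 mean for each day in each arm, with the time course number as block (lmFit, eBayes), with p-values adjusted by Benjamini-Hochberg over 13572 genes and a threshold of 0.05. The comparison between time courses had an added arm by time course term. The time course number pairs arrays, since all 78 pairs of groups showed correlated deviations (0.123 to 0.802) and the labels name each control by its course. "At least" folds set the brighter group against the weakest detected signal of each array. The fit was tested on simulated data. 2 arrays (IWP-2, days 3 and 6, time course 1) are also part of another series per the labels. Named were up to 10 called genes with the largest differences each way per comparison and a cardiac set of 29. Members, lists and tests were chosen with earlier results of these data known. Alternatives changed the background correction, normalization, filter, probes, block, variance model and source of values, or left out each array in turn.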

Additional observations from a re-analysis of the deposited data

Results flagged for a closer look

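The inhibitor effect of 21 channel genes differed between days 6 and 8 and days 3 and 4 by a test of that difference (limma, log2 units, late effect minus early effect). It became more positive for CACNG6 (3.39 ± 0.49), CACNB2 (3.01 ± 0.50), CACNA1C (2.56 ± 0.54), KCNMB1 (2.39 ± 0.67), KCNJ5 (1.46 ± 0.47), KCNH7 (1.29 ± 0.17), KCNH2 (1.22 ± 0.36), KCNQ3 (1.18 ± 0.34), KCNS1 (1.17 ± 0.31), KCNA7 (1.15 ± 0.24), KCNMB4 (1.04 ± 0.20) and HCN4 (0.46 ± 0.16). It became more negative for KCNIP1 (-2.74 ± 0.53), KCNK6 (-1.53 ± 0.29), KCNK1 (-1.09 ± 0.31), KCND1 (-1.04 ± 0.25), CACNA1H (-0.92 ± 0.24), KCNK4 (-0.91 ± 0.26), SCN3B (-0.84 ± 0.17), CACNA2D4 (-0.84 ± 0.17) and CACNG1 (-0.73 ± 0.20). The early effect is a mean of days 3 and 4, and for some genes these days differed in sign. For KCNH2 the effect was -0.47 and -0.88 on day 3 (time courses 1 and 2) and 0.81 and 1.57 on day 4. For CACNG6 it was -0.23 and -0.79, then 0.64 and 2.60, and for KCNMB1 -0.90 and -0.54, then 0.08 and 1.64. KCNS1 and CACNG1 were called on days 3 and 4 (-1.08 ± 0.22 and 0.51 ± 0.14). They were not called on days 6 and 8 (0.09 ± 0.22 and -0.22 ± 0.14). KCNK1 and CACNA1H were called in neither stage alone (0.68 ± 0.22 and 0.55 ± 0.17 on days 3 and 4, -0.41 ± 0.22 and -0.37 ± 0.17 on days 6 and 8). A second KCNK1 probe changed likewise (-1.22 ± 0.26) and, unlike the first, was called higher on days 3 and 4 (0.83 ± 0.18). A second CACNA1H probe changed likewise as well (-0.79 ± 0.25). Further probes of CACNB2 (2.83 ± 0.49) and KCNIP1 (-1.57 ± 0.38) and 1 of 2 of CACNG6 (0.79 ± 0.20) were also called, but the other CACNG6 probe (0.75 ± 0.29) and those of CACNA1C (0.36 ± 0.21), KCNH2 (0.51 ± 0.20), KCNJ5 (0.86 ± 0.31) and KCNK6 (0.07 ± 0.21) were not. Single-array omissions ended 8 of these 21 calls, in 24 of 27 cases for HCN4 (0.36 to 0.51), 10 for KCNJ5 (1.08 to 1.54), 8 for KCNH2 (1.01 to 1.20), 7 for KCNQ3 (0.89 to 1.15), 6 for KCNMB1 (1.85 to 2.27), 5 for KCNK1 (-1.05 to -0.81), 4 for KCNK4 (-0.86 to -0.70) and 3 for CACNG1 (-0.67 to -0.62).

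The inhibitor effect on CACNA1G was larger in time course 2 than in time course 1 by 1.67 ± 0.34, tested by an arm by time course term that also rests on the arrays of days 0, 1 and 2 without inhibitor. Inhibitor window and run cannot be told apart there.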

How the results depend on the processing

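No called difference changed sign under any alternative. The count of called channel genes on days 6 and 8 was 35 and ranged from 24 to 36 over the single-array omissions. The other ranges were 3 to 10 on days 3 and 4, 13 to 24 for the change between the stages, 6 to 12 for day 2 and 19 to 31 for day 8 without inhibitor, 23 to 34 for day 8 with IWP-2, all against day 0, and 0 to 6 for the comparison of time courses. Of the 35 late calls 20 remained in every omission and 13 under every alternative. With 1 value per time course 14 of the 35 late calls were kept and 21 were lost, those of CACNA1G, KCNA5, KCNJ5, KCNK3, KCNIP4 and SCN3B among them. This fit rests on fewer values, and the reason for the loss was not tested. Without background correction 4 were called on days 3 and 4, and the late differences shrank to a median of 0.38 of their size. The comparison of time courses gave 0 calls without background correction, with the authors' processed values or with no detection filter, and 2 with array weights (15 at an unadjusted p under 0.05 in the limma fit reported). It gave none in 20 of the single-array omissions and 3 to 6 without an IWP-2 array of day 3 or 4 of either time course. The cause was not tested. With no replicate block the counts were 31, 6, 14, 8, 24 and 29 in the order of the first 6 comparisons. Median scaling moved the median of all genes to -0.17 on days 6 and 8. Of the called genes of the whole series, the share called higher was 28.5% under it, against 48.5% with quantile normalization. Under median scaling 16 channel genes were higher and 20 lower on those days, and CACNA2D2, HCN4, KCNG1, KCNJ4 and KCNT2 were not called. On days 3 and 4 that share was 69.1% against 47.6%, for the change between stages 18.1% against 49.7%, for day 8 against day 0 58.6% against 50.2% without inhibitor and 33.6% against 49.8% with IWP-2, and for the time courses 6.2% against 20.0%. Averaging all detected probes of a gene ended the late calls of KCNIP4 and KCNJ4. Levels near the detection limit, such as those of HCN4, KCNJ12 and SCN9A, bound what these arrays can resolve.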
